A study of Mus musculus with 6 samples.

Results

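Neutrophil granule and surface genes were examined in RNA-seq libraries of mouse LSECs (liver sinusoidal endothelial cells). The 34 genes were chosen by symbol, as genes known for the granules, the surface, the cytosol or the secreted products of neutrophils, and all 34 were found among the 60832 genes of the count table. The LSECs came from mice whose left main liver lobe had been injected with HCT116, a human colorectal cancer cell line, to give CRCLM (colorectal cancer liver metastasis) xenografts, and were isolated with anti-CD146 beads. There were 3 libraries from bevacizumab-sensitive xenografts and 3 from bevacizumab-resistant ones, and the study generated resistance by prolonged treatment with bevacizumab, an antibody to VEGF, while vehicle mice received IgG. The methods describe the xenograft hosts as male BALB/c nude mice, which lack mature T cells but keep neutrophils and macrophages. The labels do not give the treatment or strain of the mice behind each library, and they describe all 6 as primary LSECs that were cultured for 24 h. Nothing in the labels says whether the 3 libraries of a group came from separate mice, so the p-values measure the spread between these libraries only.

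Neutrophils are made in the bone marrow and fill their granules in a fixed order. Promyelocytes make the azurophil granules with their serine proteases and myeloperoxidase. Myelocytes and metamyelocytes then make the specific and gelatinase granules, and many receptors that detect chemoattractants appear on the later, nearly mature forms. Granule mRNAs of the early stages are known to be largely switched off before the cell enters the blood, whereas S100a8 and S100a9 stay abundant. The recruitment of CXCR2-bearing myeloid suppressor cells to the metastases, which overlap with neutrophils in markers, is one of the questions of the study.

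The label of the libraries was first checked against marker genes. The total counts were between 17599326 and 20726684 per library, and a floor of 3 counts, which allows for counting error alone, lay between 0.145 and 0.170 CPM (CPM gives each count relative to the total of its own library, on 1 scale for all libraries). The CPM of 12 Kupffer cell and macrophage markers summed to between 20237 and 34943, that of 8 LSEC markers to between 125 and 460, and that of 8 pan-endothelial markers to between 61.6 and 428. By these sums, the libraries labelled as LSECs held far more RNA of macrophage markers than of endothelial markers. The neutrophil genes summed to between 392 and 8847 CPM, or between 0.0392% and 0.885% of all counts. Sensitive replicate 2 stood apart from the other libraries over all genes. Its score on the first principal component, which took 59.7% of the variance, was 143.4, against -42.2 to -7.9 in the other 5. It was also the lowest library in some macrophage genes, such as Adgre1 with 123 CPM, although it had the highest sum of macrophage markers. In RNA of bulk samples, fewer neutrophils and less neutrophil RNA per cell cannot be told apart.

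The summed level of the 34 genes spread widely within the groups. It was 6030 CPM in sensitive replicate 1, 8847 CPM in sensitive replicate 2 and 535 CPM in sensitive replicate 3, and 2526, 1427 and 392 CPM in resistant replicates 1, 2 and 3. Sensitive replicates 1 and 2 thus lay above all resistant libraries, while sensitive replicate 3 lay below resistant replicates 1 and 2. The sensitive group averaged 5138 ± 4228 CPM (SD, n = 3) and the resistant group 1449 ± 1067 CPM (SD, n = 3), a log2 ratio of -1.83. The means differed by less than 1 SD of the sensitive group, and this sum was given no test. Leaving out 1 library at a time gave log2 ratios between -2.50 and -1.18, the latter without sensitive replicate 2, the library that stood apart. The same order of libraries ran through the single genes. Of the 32 genes that passed the filter on low counts, 28 had sensitive replicates 1 and 2 as their highest libraries, against 9.71% of all 15474 genes tested. Camp, Ltf, Fpr1 and Fpr2 were the exceptions. In 24 of the 32, replicate 3 of each group gave the lowest values, against 7.3% of all genes tested, and the 8 exceptions were Mpo, Elane, Ctsg, Csf3r, Fpr1, Stfa2, Hdc and Slpi. Both orders were noticed in these values and are given as descriptions.

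**Figure D1:**
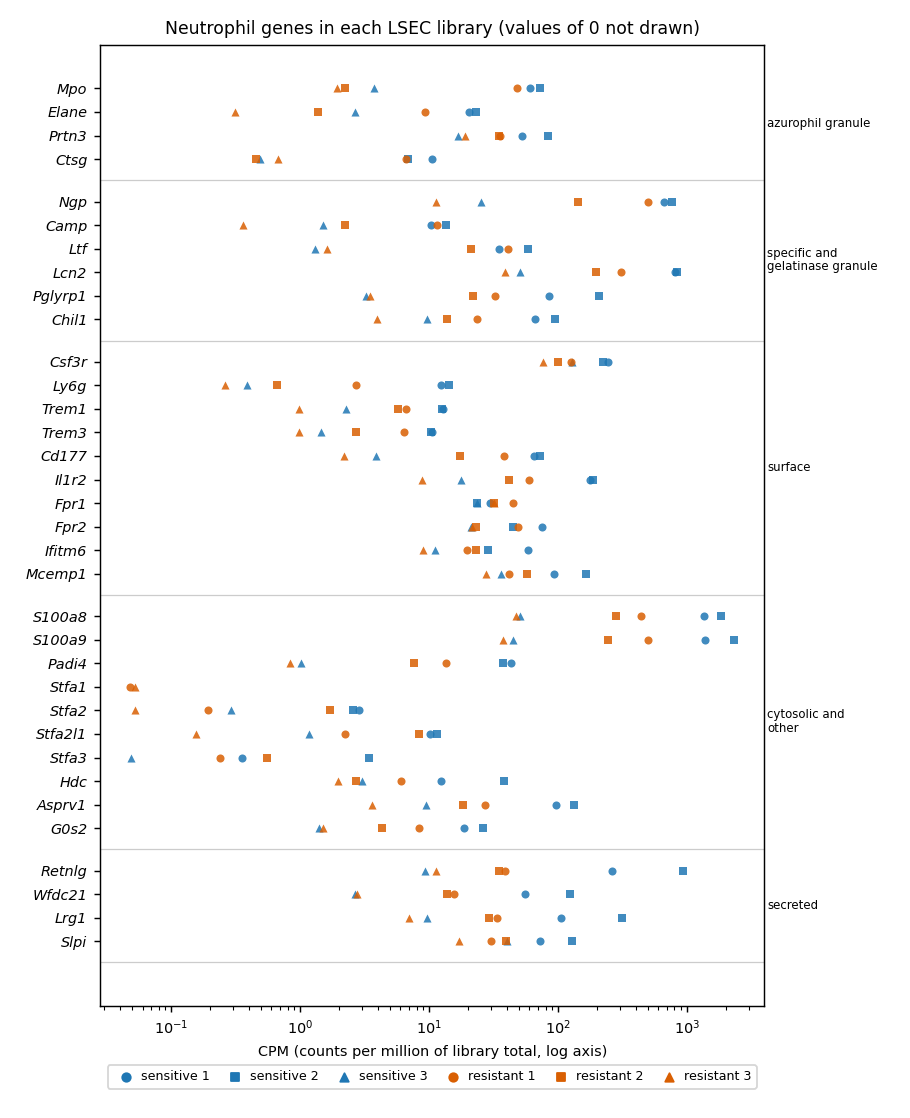
CPM (log axis) of the 34 neutrophil genes in each library, grouped by role, with sensitive libraries in blue, resistant libraries in orange and one marker shape per replicate number. Sensitive replicates 1 and 2 are the highest libraries in 28 of the 32 genes tested, and the points of a gene lie far apart except in Fpr1, Fpr2, Csf3r and a few others.

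The alarmins S100a8 and S100a9, which form the calcium-binding dimer calprotectin in the neutrophil cytosol, were the most abundant of the 34 genes per length. S100a8 (GRCm38 chr3:90668978-90670035, + strand) gave 1359, 1824 and 50.4 CPM in sensitive replicates 1, 2 and 3 and 442, 279.95 and 47.6 CPM in resistant replicates 1, 2 and 3. Its neighbour S100a9 (chr3:90692632-90695721, - strand) gave 1387, 2324 and 44.5 CPM in the sensitive and 499, 244 and 37.6 CPM in the resistant libraries, in the same order of replicates, which is kept for all values that follow. On the per-length scale of FPKM (fragments per kilobase of transcript, scaled to the mapped fragments), S100a9 ranked the highest and S100a8 next among the 34 genes in each of the 6 libraries. The ratio of their FPKM values, S100a9 over S100a8, stayed between 1.05 and 1.69. Together the pair made up 45.5%, 46.9% and 17.7% of the summed CPM of the 34 genes in the sensitive libraries and 37.3%, 36.7% and 21.7% in the resistant libraries. Their log2 fold changes, resistant against sensitive, were -2.19 (SE 1.22) for S100a8 and -2.41 (SE 1.34) for S100a9, each with an adjusted p of 0.940 by edgeR's quasi-likelihood test. The groups overlapped in both genes, since sensitive replicate 3 was close to resistant replicate 3.

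Azurophil granules carry the neutrophil serine proteases and myeloperoxidase. Mpo, which makes hypochlorous acid, gave 60.9, 72.4 and 3.75 CPM in the sensitive and 48.0, 2.23 and 1.92 CPM in the resistant libraries. Elane, neutrophil elastase (chr10:79886247-79888215, + strand), gave 20.4, 23.0 and 2.68 CPM and 9.31, 1.37 and 0.312 CPM. In both genes, sensitive replicates 1 and 2 and resistant replicate 1 were high, and the other 3 libraries were low. Prtn3, proteinase 3, lies next to Elane (chr10:79874476-79883174, + strand), with 3072 bases and no other coding gene between them, and gave 52.8, 83.9 and 16.7 CPM and 35.3, 34.6 and 19.0 CPM. Prtn3 therefore spanned 5.02-fold from its lowest to its highest library, against 73.6-fold for Elane and 37.6-fold for Mpo. The FPKM of Elane was 0.681, 0.481 and 0.281 of that of Prtn3 in the sensitive libraries and 0.465, 0.0695 and 0.0289 in the resistant libraries, with the groups overlapping. Ctsg, cathepsin G, was the lowest of the 4, between 0.455 and 10.5 CPM, and it too was high only in sensitive replicates 1 and 2 and resistant replicate 1 among the 6 libraries. All 4 log2 fold changes were negative, with a median of -1.42, and each had an adjusted p of 0.940.

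Specific and gelatinase granules hold antimicrobial and iron-binding proteins. Ngp, neutrophilic granule protein (chr9:110419747-110423012, + strand), gave 669, 759 and 25.2 CPM in the sensitive and 496, 144 and 11.4 CPM in the resistant libraries. Camp, the precursor of the antimicrobial peptide CRAMP, gave 10.4, 13.5 and 1.51 CPM and 11.4, 2.23 and 0.364 CPM. Ltf, the iron-binding lactoferrin, gave 35.1, 58.9 and 1.31 CPM and 41.0, 21.3 and 1.61 CPM. In Camp and Ltf, resistant replicate 1 exceeded sensitive replicate 1. Lcn2, the siderophore-binding lipocalin that many other cells also make, gave 814, 841 and 50.5 CPM and 309, 196 and 38.5 CPM. Pglyrp1, a peptidoglycan-binding protein, gave 85.2, 209.5 and 3.26 CPM and 32.7, 21.9 and 3.49 CPM. Chil1, a chitinase-like protein without enzyme activity, gave 66.3, 94.3 and 9.58 CPM and 23.4, 13.7 and 3.95 CPM. All 6 genes were higher in resistant replicate 2 than in sensitive replicate 3. The azurophil genes were split there, with Prtn3 higher in resistant replicate 2, Mpo and Elane lower, and Ctsg at 9 against 10 counts. This compares single libraries, without a replicate. All 6 genes of the list had a negative log2 fold change, between -2.52 for Pglyrp1 and -0.72 for Ltf (median -1.52, adjusted p between 0.940 and 0.941). For Ltf the sign depended on 1 library, with 0.25 when sensitive replicate 2 was left out.

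Promoter sequence was looked up for the same genes. C/EBP factors and PU.1 are known to drive granule genes, so the 250 bases before the RefSeq start of each gene (GRCm38.p6) were searched on both strands for TTNNGNAA, a core of the C/EBP site, and GAGGAA, a core of the PU.1 site. The searches were separate and matches of both motifs may share bases. A window was at hand for 32 of the 34 genes. Of these windows, 21 held bases of an exon in GENCODE M21, such as Mpo with 203 of 250 bases, and 11 held none. The Prtn3 window lies within the gene's GENCODE span, so the windows are not all upstream of the gene. TTNNGNAA was present in 17 of 32 windows (53.1%), against 36.8% of 32851 promoters of the same length, and GAGGAA also in 17 of 32 (53.1%), against 23.3%. By role, the 4 azurophil genes each held GAGGAA and none held TTNNGNAA, while 4 of the 6 specific and gelatinase granule genes held TTNNGNAA and 3 held GAGGAA. In the other roles, GAGGAA was present in 5 of 9 surface, 5 of 10 cytosolic and 0 of 3 secreted windows. TTNNGNAA was present in 6 of 9, 5 of 10 and 2 of 3 of these. A match is a description of these letters and not a binding site. The stretches around GAGGAA of 2 azurophil genes are shown in capitals within 40 bases each, at chr10:79879555-79879594 (+ strand) for Prtn3 and chr14:56102768-56102807 (- strand) for Ctsg, neither in an exon of GENCODE M21.
Prtn3: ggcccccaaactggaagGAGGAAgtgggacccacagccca
Ctsg: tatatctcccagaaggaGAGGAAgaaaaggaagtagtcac
For contrast, the whole windows of S100a9 (chr3:90695722-90695971, - strand), the most abundant gene, of Retnlg (chr16:48872358-48872607, + strand), the gene with the most negative log2 fold change, and of Chil1 (chr1:134181906-134182155, + strand), a granule gene, are shown with TTNNGNAA on either strand in capitals. All 3 windows lack GAGGAA, whereas that of S100a8 held 2 matches of it.
S100a9: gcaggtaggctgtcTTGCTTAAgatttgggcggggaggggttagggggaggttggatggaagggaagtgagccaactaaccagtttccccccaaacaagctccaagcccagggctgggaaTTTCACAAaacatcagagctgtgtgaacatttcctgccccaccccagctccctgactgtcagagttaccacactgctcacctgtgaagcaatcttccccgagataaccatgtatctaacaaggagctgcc
Retnlg: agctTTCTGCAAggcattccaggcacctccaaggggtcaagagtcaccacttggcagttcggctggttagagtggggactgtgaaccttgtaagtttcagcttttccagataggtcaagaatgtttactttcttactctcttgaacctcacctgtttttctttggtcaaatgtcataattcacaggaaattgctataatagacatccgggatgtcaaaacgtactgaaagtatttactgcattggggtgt
Chil1: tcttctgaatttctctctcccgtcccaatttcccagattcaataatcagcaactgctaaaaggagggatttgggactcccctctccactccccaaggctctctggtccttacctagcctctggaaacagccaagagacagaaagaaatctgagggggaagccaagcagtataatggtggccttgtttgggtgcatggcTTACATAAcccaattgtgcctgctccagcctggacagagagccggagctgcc

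The surface genes came next. Csf3r, the receptor for G-CSF (chr4:126024550-126044440, + strand), gave 244, 222 and 129 CPM in the sensitive and 126.5, 100.1 and 76.2 CPM in the resistant libraries. Its groups did not overlap, although sensitive replicate 3 and resistant replicate 1 nearly met, and the log2 fold change was -1.05 (SE 0.312). The exact two-sided permutation test gave p = 0.1 (n = 3 per group), the smallest p that 3 against 3 libraries can reach. Ly6g, the antigen by which mouse neutrophils are commonly told from monocytes (chr15:75155240-75159126, + strand), gave 12.4, 14.2 and 0.389 CPM and 2.70, 0.658 and 0.260 CPM. Ly6g had the most negative log2 fold change of the surface genes, -3.01 (SE 1.29, adjusted p = 0.940), with overlapping groups. Il1r2, the decoy receptor for interleukin-1, gave 176, 186 and 17.7 CPM and 60.0, 41.4 and 8.89 CPM. Cd177, a GPI-anchored glycoprotein, gave 64.7, 71.9 and 3.89 CPM and 38.3, 17.5 and 2.18 CPM. Mcemp1, a membrane protein of mast cells and neutrophils, gave 93.8, 165 and 35.9 CPM and 41.6, 57.4 and 27.5 CPM. In these 3 genes too, only sensitive replicates 1 and 2 exceeded all resistant libraries. Trem1 and Trem3, activating receptors encoded 852 bases apart on chromosome 17, ran from 0.988 to 12.7 and from 0.988 to 10.5 CPM, with sensitive replicates 1 and 2 at the top of both.

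The formyl peptide receptors and Ifitm6 moved less between libraries. Fpr1, a receptor for bacterial formyl peptides (chr17:17876471-17883940, - strand), gave 29.5, 23.6 and 23.5 CPM in the sensitive and 44.9, 31.7 and 31.9 CPM in the resistant libraries. It was the only one of the 32 genes tested with a positive log2 fold change, 0.43 (SE 0.213, adjusted p = 0.940), and its groups did not overlap (exact two-sided permutation p = 0.1, n = 3 per group). Fpr2, which lies 3883 bases from Fpr1, gave 75.3, 44.8 and 21.3 CPM and 48.9, 23.0 and 21.4 CPM. Its groups overlapped, and its log2 fold change was -0.66 (SE 0.489). Ifitm6, an interferon-induced transmembrane family member that macrophages also express, gave 58.0, 28.5 and 11.1 CPM and 19.6, 23.0 and 9.05 CPM. From the lowest to the highest library, Fpr1 spanned 1.91-fold, Csf3r 3.20-fold, Fpr2 3.54-fold, Mcemp1 5.99-fold and Ifitm6 6.41-fold. Over the 30 genes with more than 3 counts in every library this span had a median of 28.4-fold, and over the 13913 genes tested with such counts it was 2.35-fold. A span of at least 10-fold was seen in 23 of the 30 and in 4.47% of those 13913 genes.

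Cytosolic and secreted products followed. Retnlg, a resistin-like protein of neutrophils (chr16:48872621-48874496, + strand), gave 264, 939 and 9.24 CPM in the sensitive and 38.8, 34.7 and 11.3 CPM in the resistant libraries, a log2 fold change of -4.00 (SE 1.42, unadjusted p = 0.0252, adjusted p = 0.940), the most negative of the 32. Without sensitive replicate 2 it was -2.23, and that of Lrg1 was -1.28. Sensitive replicate 2 alone supplied most of that group's counts, and sensitive replicate 3 was the lowest of the 6 libraries. Lrg1, a leucine-rich glycoprotein of granules and plasma, gave 106, 312 and 9.68 CPM and 33.7, 29.2 and 7.02 CPM. Wfdc21, a small WAP-domain protein, gave 55.7, 125 and 2.68 CPM and 15.7, 13.8 and 2.76 CPM. Slpi, the leukocyte protease inhibitor that blocks elastase and cathepsin G, gave 73.1, 129 and 40.3 CPM and 30.4, 39.6 and 17.2 CPM. The groups of Slpi did not overlap, with sensitive replicate 3 just above resistant replicate 2, and the log2 fold change was -1.58 (SE 0.526). Hdc, the enzyme that makes histamine, gave 12.3, 38.4 and 3.02 CPM and 6.08, 2.73 and 1.98 CPM. Asprv1, a retroviral-like aspartic protease, gave 97.3, 133 and 9.44 CPM and 26.9, 18.5 and 3.64 CPM. Padi4, the arginine deiminase that citrullinates histones in neutrophil extracellular traps, gave 42.9, 37.3 and 1.02 CPM and 13.7, 7.64 and 0.832 CPM. G0s2, an inhibitor of triglyceride lipase, gave 18.8, 26.1 and 1.41 CPM and 8.39, 4.35 and 1.51 CPM. Each of Retnlg, Lrg1, Wfdc21, Hdc, Asprv1 and G0s2 was highest in sensitive replicate 2, whereas Padi4 was highest in sensitive replicate 1.

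The stefin A cysteine protease inhibitors on chromosome 16 included genes at or below the floor. Stfa2l1 ran from 0.156 CPM, which was 3 counts in resistant replicate 3, to 11.6 CPM and Stfa2 from 0.0520 to 2.85 CPM. Both were high in sensitive replicates 1 and 2 and also in resistant replicate 2, where they reached 8.35 and 1.72 CPM, above the 2.22 and 0.193 CPM of resistant replicate 1. Stfa3 ran from 0 to 3.41 CPM, with its highest value in sensitive replicate 2, and Stfa1 had 1 count in each of 2 resistant libraries and 0 in the other 4. Stfa1 and Stfa3 did not pass the filter and were not tested. These genes are near-identical copies in one cluster, and reads shared between copies make their separate values uncertain.

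**Figure D2:**
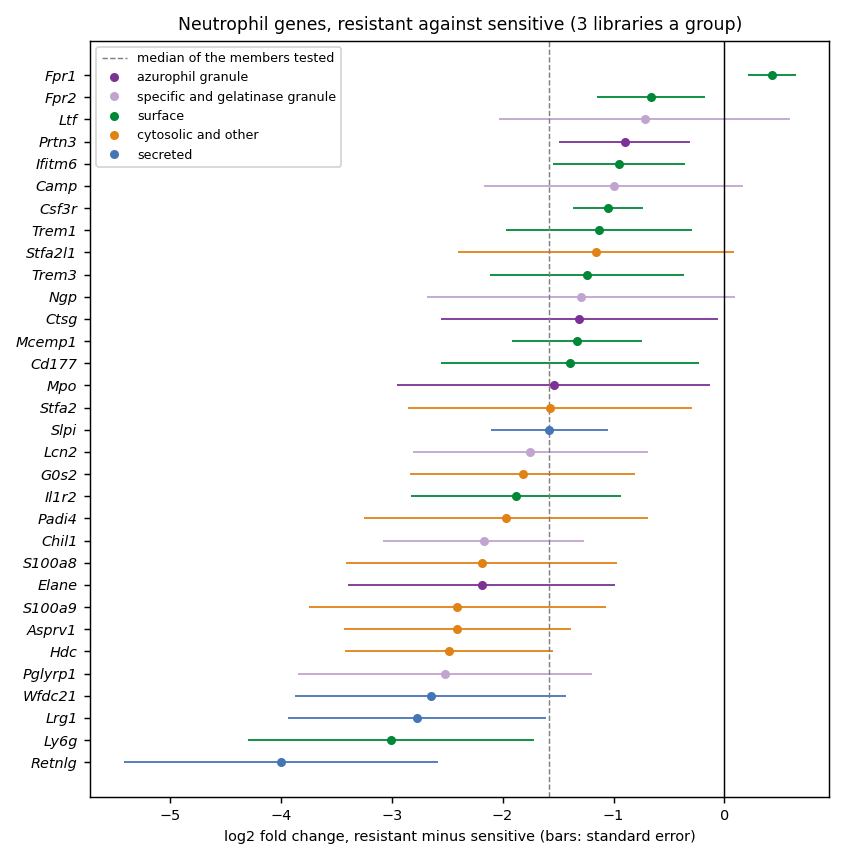
Log2 fold changes of the 32 genes tested, resistant minus sensitive, with standard errors, coloured by role. Retnlg is at the negative end (-4.00), Fpr1 is the only gene above 0 (0.43), and the dashed line is the median of -1.58.

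In the comparison of the resistant with the sensitive group, none of the 34 genes passed the test. edgeR's quasi-likelihood test gave 0 of 15474 genes (0%) with an adjusted p under 0.05, and 476 with an unadjusted p under 0.05, and DESeq2 called 24 genes, none of them among the 34. The adjusted p of the 32 genes tested lay between 0.940 and 0.941. At an unadjusted p under 0.05, 6 of the 32 were lower in the resistant group, against 2.54% of all genes tested, and 0 were higher, against 0.536%. These were Csf3r, Slpi, Retnlg, Hdc, Chil1 and Lrg1, with unadjusted p-values of edgeR between 0.0119 for Csf3r and 0.0486 for Lrg1, while each had an adjusted p of 0.940. A negative log2 fold change was found for 31 of the 32, against 49.2% of all genes tested, and their median was -1.58, against 0.008 over all genes tested. Without sensitive replicate 2, 30 of 32 were negative, with a median of -1.07 against -0.004. Groups did not overlap in 2 of the 32 with the resistant group lower (Csf3r and Slpi), against 3.38% of all genes tested, and in 1 with it higher (Fpr1), against 5.01%. These shares of 2 and 1 genes of 32 are near the background. The count of 6 depended on single libraries. It was 22 of 33 genes tested without sensitive replicate 3, where 5.29% of all genes were lower, 1 without sensitive replicate 2 (2.76% of all genes), 3 without resistant replicate 2 (1.12%) and 1 without resistant replicate 3 (0.822%). It was 13 by DESeq2 (3.93% of all genes lower), 2 by limma-voom (1.82%) and 2 on log2(FPKM + 1) (2.1%).

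The roles were then set beside each other. The median log2 fold change was -1.42 over the 4 azurophil genes, -1.52 over the 6 specific and gelatinase granule genes, -1.19 over the 10 surface genes, -2.08 over the 8 cytosolic genes tested and -2.71 over the 4 secreted genes. Of the 6 genes with an unadjusted p under 0.05, 3 were secreted (Retnlg, Lrg1 and Slpi), and the azurophil list held none. No test was made between roles.

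**Figure D3:**
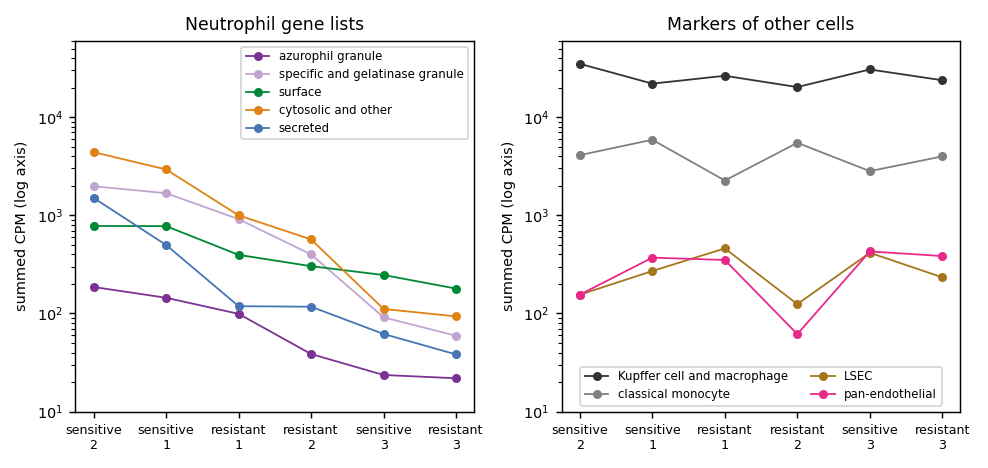
Summed CPM (log axis) of the 5 lists of neutrophil genes (left) and of marker lists of other cells (right) in each library, ordered from the highest to the lowest sum of the 34 genes. The granule, cytosolic and secreted lists drop more steeply from left to right than the surface list, and the macrophage list stays between 20237 and 34943 CPM.

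Granule genes of precursors were compared with surface genes that mature neutrophils carry, per library and per length. At which stage each surface gene is first expressed was not tested. The precursor list held the 4 azurophil and 6 specific and gelatinase granule genes, and the mature list held Csf3r, Ly6g, Trem1, Cd177, Il1r2, Fpr1, Fpr2 and Mcemp1. Trem3 and Ifitm6 were left out of the mature list as genes that monocytes and macrophages also express. The genes kept were not shown to be specific to neutrophils. Pearson's r with the mean log2 CPM of the neutrophil genes was 0.99 for Trem3 and 0.89 for Ifitm6. Among the kept genes it was -0.05 for Fpr1 and at least 0.87 for the others. The summed FPKM of the precursor list was 1031, 1224 and 61.4 in the sensitive and 627, 241 and 40.7 in the resistant libraries, and that of the mature surface list was 343, 367 and 106 and 185, 138 and 86.2. Of the mature surface sum in sensitive replicate 3, Csf3r, Fpr1, Fpr2 and Mcemp1 gave 35.7, 17.7, 16.4 and 24.1. In resistant replicate 3 they gave 21.1, 24.1, 16.5 and 18.4. How much of this RNA came from monocytes or macrophages was not tested. The precursor sum exceeded the surface sum 3.01-fold and 3.34-fold in sensitive replicates 1 and 2. In resistant replicates 1 and 2 it did so 3.40-fold and 1.74-fold. It was at 0.581 and 0.473 of the surface sum in replicate 3 of the sensitive and the resistant group. Ngp and Lcn2 supplied most of the precursor sum, for example 547 and 310.5 in sensitive replicate 1. The azurophil genes alone summed to 79.2, 99.6 and 13.9 in the sensitive and 50.2, 22.5 and 12.5 in the resistant libraries. These azurophil sums were below the surface sum in every library. The log2 ratio averaged 0.85 ± 1.42 (SD, n = 3) for sensitive and 0.50 ± 1.45 (SD, n = 3) for resistant libraries. The difference of -0.35 was smaller than the spread within either group, and its sign turned when sensitive replicate 1 (0.02), sensitive replicate 2 (0.09) or resistant replicate 3 (0.44) was left out. Log2 fold changes ran from -2.52 to -0.72 over the precursor list (median -1.42) and from -3.01 to 0.43 over the mature surface list (median -1.23). Within both groups, the summed granule genes spread more widely over the libraries than the summed surface genes.

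Pairs of genes from different roles gave different orders of libraries. The FPKM of Ngp over that of Retnlg was 1.23, 0.393 and 1.33 in the sensitive and 6.20, 2.01 and 0.490 in the resistant libraries. It was highest in resistant replicate 1 and lowest in sensitive replicate 2, the library with the most Retnlg, and the groups overlapped. The FPKM of Ngp over that of S100a8 was between 0.236 and 0.292 in 4 libraries, 0.637 in resistant replicate 1 and 0.136 in resistant replicate 3. Lcn2 held a steadier ratio to S100a8, between 0.122 and 0.265. Csf3r over S100a8 was 0.0345, 0.0234 and 0.492 in the sensitive and 0.0550, 0.0688 and 0.307 in the resistant libraries, so Csf3r was far closer to S100a8 in replicate 3 of either group, where S100a8 was low.

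**Figure D4:**
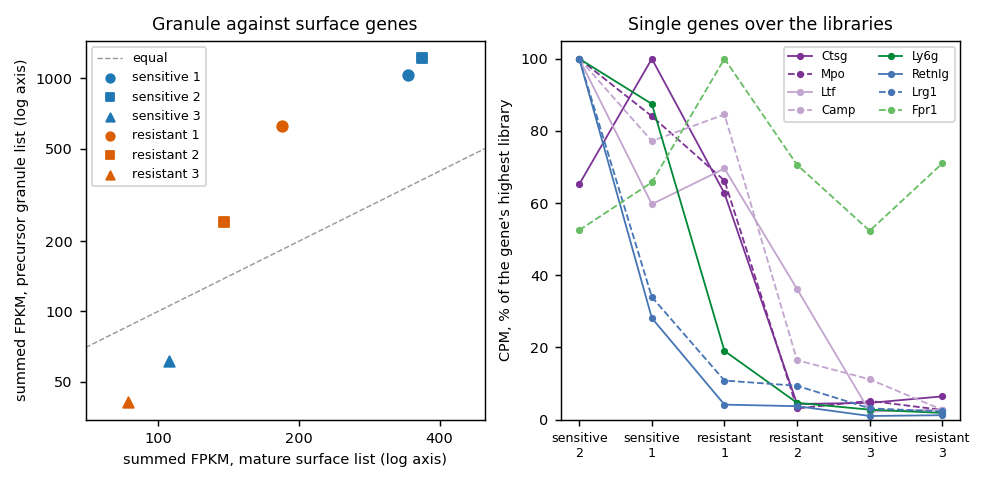
Left, summed FPKM of the precursor granule list against that of the mature surface list in each library (both axes log, dashed line where the sums are equal). Right, CPM of 8 single genes as a percentage of each gene's highest library, in the order of the summed level of the 34 genes. Replicate 3 of each group lies below the line of equal sums, Retnlg and Lrg1 are far below their level in sensitive replicate 2 in every other library, Camp, Ltf, Mpo and Ctsg are between 62.7% and 84.6% in resistant replicate 1, and Fpr1 stays at 52.3% or more throughout. Of the granule genes not drawn, Ngp is at 65.3% in resistant replicate 1. The others are lower there, Prtn3 at 42.0%, Elane at 40.6%, Lcn2 at 36.8%, Chil1 at 24.8% and Pglyrp1 at 15.6%.

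Other genes of the neutrophil pathway, from a list of 35 found in the table, gave a smaller shift. Of the 33 tested, 22 had a negative log2 fold change (median -0.36), against 49.2% of all genes tested, 3 had an unadjusted p under 0.05 and were lower in the resistant group, against 2.54%, 0 were higher, against 0.536%, and 0 passed the test after adjustment. Cxcr2, the chemokine receptor of mature neutrophils and a target of CXCL5, gave 103, 76.5 and 10.1 CPM in the sensitive and 24.8, 23.5 and 8.17 CPM in the resistant libraries (log2 fold change -1.82, SE 0.805). Mmp9, gelatinase B, gave 179, 156 and 10.5 CPM and 38.8, 46.4 and 27.6 CPM. Mmp8, the neutrophil collagenase, gave 1182, 673 and 371 CPM and 423, 709 and 142 CPM. Sensitive replicates 1 and 2 were the highest libraries in Cxcr2 and Mmp9 but not in Mmp8, where resistant replicate 2 exceeded sensitive replicate 2. Ltb4r1, the leukotriene B4 receptor, had the most negative log2 fold change of those with an average log2 CPM of at least 3 (-2.49, SE 1.20), followed by Cxcr2 and by Clec4e, a C-type lectin that macrophages share (-1.80, SE 0.582). Cebpe, the factor of the specific granule stage, gave 9.47, 16.8 and 0.827 CPM and 7.57, 2.78 and 0.520 CPM. Fcnb, a ficolin of early precursors, was above the floor of 3 counts in sensitive replicate 1 (1.94 CPM) and resistant replicate 1 (2.65 CPM) and at or below 0.156 CPM in the other 4 libraries, and it was not tested. Csf3, the gene of G-CSF, the ligand of Csf3r, gave 2.29, 0.966 and 1.95 CPM and 5.64, 3.24 and 1.51 CPM, with overlapping groups.

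Markers of other cells were read in the same libraries. The 6 classical monocyte markers summed to between 2818 and 5885 CPM in the sensitive and between 2262 and 5477 CPM in the resistant group. Chil3 supplied most of this sum in every library, with 1808 to 4895 CPM. Ly6c2 ran from 297 CPM in sensitive replicate 1 to 9.7 CPM in resistant replicate 3. F13a1 ran from 574 CPM in resistant replicate 2 to 213 CPM in sensitive replicate 2. All 6 monocyte markers had negative log2 fold changes, against 49.2% of all genes tested. These were near 0 for F13a1 (-0.02), Chil3 (-0.11) and Vcan (-0.2) and larger for Ccr2 (-1.21), Ly6c2 (-1.45) and Plac8 (-1.93). The 12 macrophage markers summed to between 21934 and 34943 CPM and between 20237 and 26378 CPM. Of these 12, 7 had negative log2 fold changes, against the same 49.2%. The endothelial markers were mostly negative too. Of the 8 LSEC markers 7 were negative, from -1.11 for Gpr182, with Lyve1 positive at 0.54. Of the 8 pan-endothelial markers 7 were negative, from -1.93 for Tek, with Eng positive at 0.02. Exocrine pancreas markers gave 32.4, 68.4 and 0.195 CPM in the sensitive and 6.22, 0 and 2.44 CPM in the resistant libraries, so that they too were highest in sensitive replicates 1 and 2. Erythroid markers summed to between 4.28 and 10.5 CPM in the sensitive and between 0.253 and 1.35 CPM in the resistant group and did not overlap. The B cell sums also did not overlap, with 1.42 to 2.63 CPM in the sensitive and 0.416 to 1.35 CPM in the resistant group. T and NK cell markers were at 6.82 CPM or less, with Cd8a and Klrb1c at or below 3 counts in every library. Mast cell and basophil markers summed to between 1.77 and 21.3 CPM, eosinophil markers to between 0.260 and 3.58 CPM and hepatocyte markers to between 24.9 and 126 CPM. The part of any of these in the neutrophil gene values was not tested.

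The genes most like the 34 across the 6 libraries were Ube2l6, Acap1, Rflnb, Treml2 and Nt5c2. Each had Spearman's rho of 1 with the mean log2 CPM of the 32 neutrophil genes at 1 CPM or more, and Pearson's r between 0.988 and 0.995. A rho of 1 was shared by 44 of the 9078 genes compared, so over 6 libraries this likeness is a description of their order. Treml2, a receptor of the Trem cluster, gave 78.0, 101 and 18.7 CPM in the sensitive and 39.5, 34.4 and 10.7 CPM in the resistant libraries.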

How the data were processed

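RNA of LSECs was sequenced in 6 libraries, grouped by sample title. Counts were made by the authors with HISAT2 2.0.5 and featureCounts 1.5.0-p3 and deposited as raw whole numbers per gene; the submitters' processing notes name mm9 and also DESeq2 1.16.1 and edgeR. The FPKM values deposited by the authors were used to compare genes per length. Poly(A) selection is stated in the methods of the paper, as is depletion of ribosomal RNA. The authors' own comparison (group means, fold changes and p-values) was not used.

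Members and lists were chosen with earlier results of these data known. Counts were filtered with filterByExpr, scaled by TMM and compared with the quasi-likelihood test of edgeR 4.0.16 in R 4.3.3 (robust, two-sided, no covariate), with Benjamini-Hochberg adjustment over the 15474 genes tested and a threshold of 0.05. Standard errors are those implied by F. The procedure was tested on simulated data. CPM uses the total count of 17599326 to 20726684 per library; without molecular identifiers, true error can only exceed counting error. Values are given per library for genes with a mean of at least 10 CPM, with groups that do not overlap and a mean of at least 1 CPM, or named in the design (Ly6g, Csf3r, Mpo, Elane, Ngp, Camp and Ltf), and other genes by range. From the other neutrophil genes, Cxcr2, Mmp8, Mmp9, Csf3, Fcnb and Cebpe and the 3 with the largest absolute log2 fold change at an average log2 CPM of at least 3 are named. All 34 genes were located in GENCODE M21 (GRCm38) through their Ensembl identifiers, and promoters are RefSeq's. Alternatives were other size factors, other filters, DESeq2 1.42.0, limma-voom and log2(FPKM + 1) with limma 3.58.1, a block on replicate number, and omission of each library.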

Additional observations from a re-analysis of the deposited data

How the results depend on the processing

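Of 442 values of log2 fold change recomputed for the 32 genes tested, 441 kept their direction and their side of the threshold, and 1 reversed. This was Ltf at 0.25 without sensitive replicate 2, in a range from -1.53 to 0.25 when libraries were left out. The adjusted p in the reported edgeR test lay between 0.940 and 0.941, so keeping that side says little of stability. Sizes did move, for Mpo from -0.9 without sensitive replicate 2 to -4.51 without resistant replicate 1. The count of all genes with an adjusted p under 0.05 was 0 in edgeR, limma-voom and log2(FPKM + 1) and 24 by DESeq2, with 0 of the neutrophil genes among them and a smallest adjusted p of 0.355 for these. The count of neutrophil genes with an unadjusted p under 0.05, 6 in the reported analysis, was 13 by DESeq2 (3.93% of all genes lower), 2 by limma-voom (1.82%) and 2 on log2(FPKM + 1) (2.1%), and between 1 and 22 when a library was left out (0.822% to 5.29%). It was 4 with library totals alone (1.96%) and 7 with RLE size factors (2.63%), with a median log2 fold change of all genes of 0.067 and 0. The log2 ratio of the summed level was between -2.06 and -1.44 under the other settings, and the difference of the granule to surface log2 ratio was between -1.17 and 0.44 when a library was left out and between -0.42 and -0.12 under other sums or lists. The cause of these changes was not tested.

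With the replicate number as a block the count of neutrophil genes was 18 of 32, against 2.52% of all genes lower. The smallest adjusted p of these genes was then 0.938 by edgeR's quasi-likelihood test. The difference of the granule to surface log2 ratio stays at -0.35 with such a block by arithmetic, so it is no check of that result. Libraries of the same number were not paired by the labels. Their deviations from the group means correlated at -0.000932, 0.0343 and 0.194 for replicates 1, 2 and 3. Whether libraries of the same number shared a batch was not tested. Stfa1, Stfa2, Stfa2l1 and Stfa3 are limited by depth, with 3 counts or fewer in some libraries.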
